A study of Mus musculus with 3 samples.

Results

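Neuronal miRNAs were followed in mouse plasma after exercise, as 8 probes on a miRNA chip: mmu-miR-9-5p, mmu-miR-9-3p, mmu-miR-124-3p, mmu-miR-128-3p, mmu-miR-137-3p, mmu-miR-138-5p, mmu-miR-153-3p and mmu-miR-219a-2-3p, written from here on without the species prefix. They were chosen by name as neuron-enriched miRNAs, and all 8 were found among the 1900 miRNA probes of the chip. Each array carried plasma from 1 group of male C57BL/6 mice aged 8 weeks: mice after aerobic exercise, mice after resistance exercise, and caged controls. C57BL/6 is a common inbred strain, and no group carried a transgene or drug in the labels. Every array held 1 pool made from 3 mice, with inferior vena cava blood taken from exercised mice 3 h past an acute bout, and all mice were fasted overnight. Each mouse gave 100 µl of plasma, cleared of debris by a second spin at 16000 g. The exercise regimens are named no further in the labels. There was thus 1 sample a group, no replicate and no test. All errors given are technical, from spots on the same array, and none covers mice or pools.

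Most miRNAs act as short guide strands that bring the Argonaute proteins to messenger RNAs, which are then repressed. A hairpin precursor is cut into a duplex, and usually the guide arm is kept while the other arm, the passenger, is degraded. The miRNAs described here are best known from the brain. miR-124 is the classic neuronal miRNA and represses non-neuronal transcripts, miR-9 acts in neural progenitors, and miR-219 drives oligodendrocytes, the myelin-forming glia, to mature. Plasma miRNAs come mainly from blood cells, vessel walls and liver, and a lower plasma level cannot be split into fewer source cells or less RNA from each of them.

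The mature sequences show how unlike the members are in base composition, which is set beside the intensities further on. RefSeq (GRCm38.p6) held 6 of the 8 members, printed 5′ to 3′ with the seed, bases 2 to 8, in capitals. No seed was shared among these 6, and none of the other chip probes matched in RefSeq carried one of these seeds.
miR-9-5p: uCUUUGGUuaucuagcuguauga
miR-9-3p: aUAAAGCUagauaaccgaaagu
miR-137-3p: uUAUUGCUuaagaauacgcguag
miR-153-3p: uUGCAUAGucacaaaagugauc
miR-128-3p: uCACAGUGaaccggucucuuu
miR-138-5p: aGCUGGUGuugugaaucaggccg

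The first 4 of these had 34.8%, 31.8%, 34.8% and 36.4% G and C. miR-128-3p had 47.6% and miR-138-5p 56.5%. Several members have more than 1 gene. Mature miR-9-5p and miR-9-3p come from Mir9-1 on chromosome 3, Mir9-2 on chromosome 13 and Mir9-3 on chromosome 7. miR-128-3p comes from Mir128-1 on chromosome 1 and Mir128-2 on chromosome 9, which lie in introns of R3hdm1 and Arpp21. miR-138-5p comes from Mir138-1 on chromosome 9 and Mir138-2 on chromosome 8. Mir137 lies at chr3:118433857-118433929 and Mir153 at chr12:117250817-117250885, both on the plus strand. A probe thus reads the sum over all genes of a mature miRNA.

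A miRNA was called above blanks where its raw intensity passed the mean of the array's blank spots by more than 2 SD. Those limits were 99.0 on the aerobic, 96.9 on the resistance and 94.8 on the control array, over blank means of 92.9, 93.3 and 92.0. Of the 8 members, 4 passed on the aerobic array, 4 on the resistance array and 4 on the control array. Over all 1900 miRNA probes 71.8% passed on the aerobic, 72.2% on the resistance and 75.3% on the control array. The same 4 members passed on every array: miR-138-5p, miR-124-3p, miR-128-3p and miR-219a-2-3p. The other 4, miR-9-5p, miR-9-3p, miR-137-3p and miR-153-3p, were among the 401 miRNAs that passed on none.

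The signal above the blank mean, summed over the 8 members with those under it counted as 0, was 87.3 intensity units in the aerobic, 49.3 in the resistance and 61.1 in the control pool. That was 0.0154%, 0.0115% and 0.0132% of the signal of all miRNA probes on those arrays, summed likewise. The median raw intensity of all miRNA probes was 114.9 on the aerobic, 109.1 on the resistance and 107.3 on the control array. miR-138-5p lay above that median on every array and miR-124-3p on the control array, and the other 6 members lay below it on all 3. Both arms of miR-9, a defining pair of neural tissue, were not above blanks on any array. miR-219a-2-3p is better known from oligodendrocytes, so the word neuronal is loose for it. Intensities of different probes also depend on the probe, so the order of the members is not an order of amounts.

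miR-138-5p, which restrains dendritic spine growth in neurons, was the brightest member. Its raw intensity was 137.4 in the aerobic, 118.2 in the resistance and 123.6 in the control pool. It stood 14.6, 13.5 and 22.4 blank SDs above the blank mean in that order, and no blank spot reached it on any array. It was the only member above 10 blank SDs on all 3 arrays. At that stricter limit 1 member was left on the aerobic, 1 on the resistance and 2 on the control array, where 42.5%, 46.6% and 52.1% of all miRNA probes passed.

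miR-124-3p, the miRNA most specific to neurons on the list, had raw intensities of 107.7 in the aerobic, 107.3 in the resistance and 110.5 in the control pool. It stood 4.84 blank SDs above the blank mean in the aerobic, 7.61 in the resistance and 13.1 in the control pool, the only one over 10. In intensity units it stood 14.8, 14.1 and 18.5 above the blank mean, and the blank SD itself was 3.05, 1.85 and 1.41 in the same order. The control pool was the highest on both measures.

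miR-128-3p, which dampens the excitability of neurons, read 106.8 in the aerobic, 98.8 in the resistance and 99.2 in the control pool. miR-219a-2-3p, from a hairpin known for oligodendrocyte maturation, read 107.1 in the aerobic, 97.4 in the resistance and 95.9 in the control pool. For both of them the aerobic spot was the highest, and the other two pools lay within 2 intensity units of each other. Blank spots at least as bright as miR-219a-2-3p numbered 1 on the aerobic, 38 on the resistance and 17 on the control array, out of 896 on each.

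The chip also carried 174 printed spots without a probe, a further measure of background. Of them, 4.02% passed the blank limit in the aerobic, 20.1% in the resistance and 78.7% in the control pool. With their 95th percentile as the limit, 4 members passed on the aerobic, 2 on the resistance and 2 on the control array, where 73.4%, 64.2% and 58% of all miRNA probes passed. miR-138-5p and miR-124-3p passed on all 3 arrays, and miR-128-3p and miR-219a-2-3p only on the aerobic array.

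The members not above blanks were low on all arrays. miR-9-5p read 88.6 in the aerobic, 87.9 in the resistance and 87.9 in the control pool. Its distance from the blank mean was -1.41, -2.92 and -2.93 blank SDs. Its partner from the same hairpins, miR-9-3p, read 85.7, 93.0 and 89.7 in the same order. miR-137-3p, which acts in neuronal maturation, read 85.9 in the aerobic, 93.8 in the resistance and 88.2 in the control pool. miR-153-3p, which targets the synaptic protein alpha-synuclein, read 90.7, 91.0 and 90.2. A spot not above blanks gives no level, only that nothing was detectable at this signal over background.

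**Figure D1:**
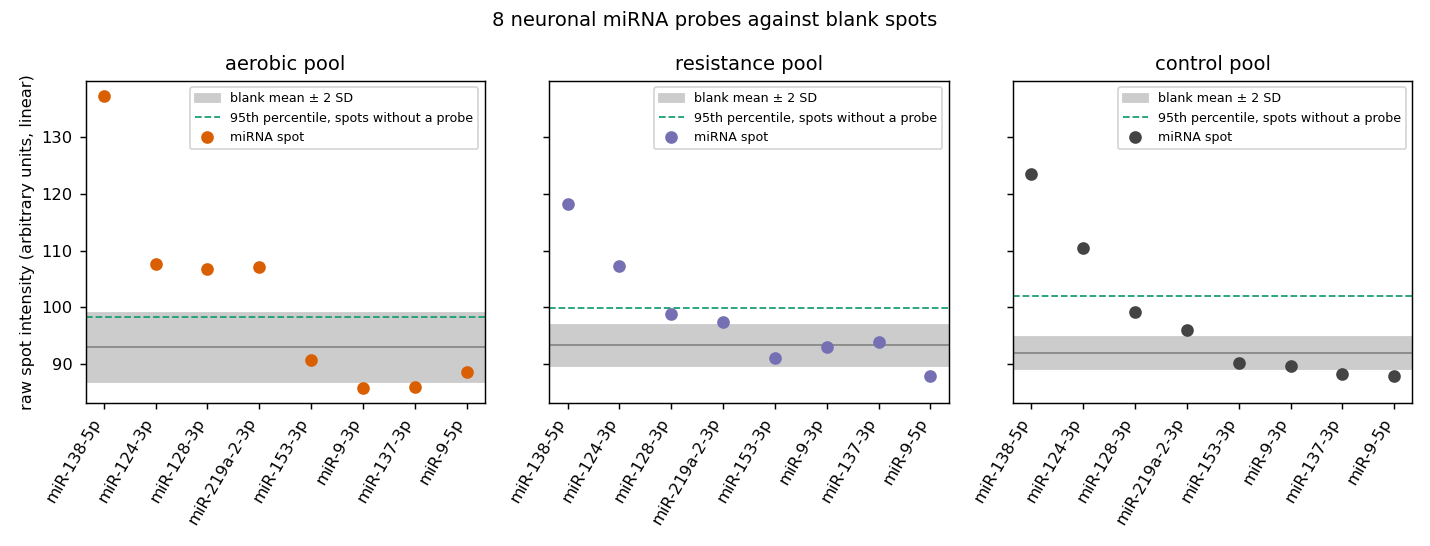
Raw spot intensity (linear, arbitrary units) of the 8 neuronal miRNAs, 1 point per spot, in the aerobic, resistance and control pool. Grey bands are the blank mean ± 2 SD of each array and the dashed line is the 95th percentile of the printed spots without a probe: 4 members lie above the band in every pool, with miR-138-5p the highest at 137.4, 118.2 and 123.6.

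Pools were compared on normalized log2 intensities (normexp background correction with an offset of 50, then quantile normalization), over miRNAs above blanks on both arrays. Repeated spike-in spots scattered with an SD of 0.11 in log2, so 2 SD of a difference between 2 spots was 0.32. That scatter was measured after the background correction and before quantile normalization, which left control spots out. Among other repeated control spots, those named Negative Control 1 gave 0.77 and those named S-Probe 0.21. The offset pulls differences of dim spots towards 0, so a small difference here does not show that levels were alike. A spot not above blanks on either array left the comparison, so a 2-fold fall of a member could not be counted (values further on).

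In aerobic against control plasma, 4 of the 8 members could be compared and 0 differed by more than 2 SD of spot scatter. Of all 1321 miRNAs compared, 3.79% were higher and 2.04% lower by more than that. None of the 4 reached a 2-fold difference either way, beside 0% higher and 0.227% lower among all compared, and 3 of the 4 lay above 0, beside 48.6%. The log2 difference was 0.15 for miR-219a-2-3p, 0.06 for miR-128-3p, 0.05 for miR-138-5p and -0.17 for miR-124-3p. Their median was 0.05, beside 0.00 over all miRNAs compared. In the authors' normalized values, which carry no offset, miR-219a-2-3p stood at 8.55 in the aerobic and 3.26 in the control pool, a fold of 2.62 against 1.11 here. That fold rests on spots 14.2 and 3.90 intensity units above their blank means. The control spot, at 95.9, lay under the median of the printed spots without a probe on that array, 96.3. miR-124-3p stood at 8.89 in the aerobic and 15.4 in the control pool in the authors' values, a ratio of 0.577, while without scaling between arrays its log2 difference was -0.01.

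In resistance against control plasma 0 of the 4 members compared passed 2 SD of spot scatter. Over all 1336 miRNAs compared, 5.61% were higher and 3.22% lower by more than that. None of the 4 reached a 2-fold difference, beside 0.225% higher and 0.0749% lower among all compared, and 1 of the 4 lay above 0, beside 44.2%. The log2 difference was 0.01 for miR-219a-2-3p, -0.04 for miR-128-3p, -0.09 for miR-124-3p and -0.11 for miR-138-5p. Their median was -0.06, beside -0.01 over all miRNAs compared. In the authors' values 3 of the 4 were lower in the resistance pool, with ratios of 0.715 for miR-124-3p, 0.723 for miR-128-3p and 0.743 for miR-138-5p. miR-219a-2-3p had a ratio of 1.00, with 3.27 in the resistance and 3.26 in the control pool.

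In resistance against aerobic plasma 0 of the 4 members passed 2 SD of spot scatter, beside 1.91% of all 1307 miRNAs higher and 1.3% lower. None reached a 2-fold difference, beside 0.153% higher and 0% lower, and 1 of the 4 lay above 0, beside 46.6%. The log2 difference was 0.08 for miR-124-3p, -0.09 for miR-128-3p, -0.14 for miR-219a-2-3p and -0.15 for miR-138-5p. Their median was -0.12, beside -0.01 over all miRNAs compared. In the authors' values the 3 lower members had ratios of 0.519, 0.382 and 0.732 in that order. All 3 comparisons draw on the same 3 arrays, so their differences are not independent of each other.

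The span over the 3 pools, highest minus lowest normalized log2 intensity, was 0.17 for miR-124-3p, 0.15 for miR-138-5p, 0.15 for miR-219a-2-3p and 0.09 for miR-128-3p. None of the 4 spanned 0.32, so no miRNA was named as sharing their pattern. The highest values of miR-219a-2-3p and miR-128-3p were 6.10 and 6.09, both in the aerobic pool. Probes not above blanks stood as high as 5.92 in the resistance pool (miR-132-3p) and 5.91 in the control pool (miR-218-5p). A fall of 0.32 from those highest values would thus have left the comparison, so the limit could not show it. The highest value of any member was 6.57, for miR-138-5p in the aerobic pool. A 2-fold fall from that value would have left the comparison as well, so the absence of 2-fold falls among members shows nothing. The direction of 2 differences depended on scaling. miR-124-3p in resistance against aerobic plasma was -0.05 without scaling between arrays, and miR-219a-2-3p in resistance against control plasma was -0.01 with spike-in scaling. Without scaling the median of all miRNAs itself became 0.20 in aerobic against control and -0.19 in resistance against aerobic plasma. The share of compared miRNAs above 0 then became 96.8% in aerobic against control, 53.6% in resistance against control and 4.90% in resistance against aerobic plasma. With spike-in scaling it was 72.9%, 35.6% and 18.9%, and in the authors' values, where the median of all miRNAs in resistance against control plasma was -0.13, 40.6%, 33.8% and 44.3%. The aerobic array was brighter as a whole, with a summed miRNA signal above blanks of 568464 intensity units against 428809 in the resistance and 463813 in the control pool.

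**Figure D2:**
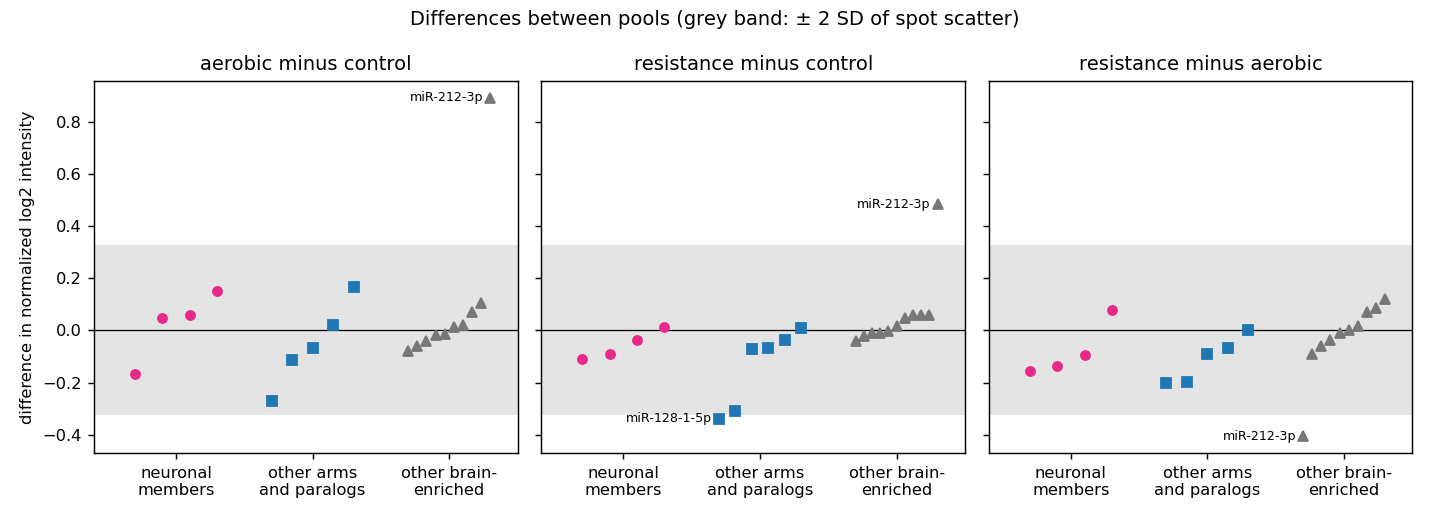
Differences in normalized log2 intensity (y axis) between pools for the neuronal members, the other arms and paralogs of their hairpins, and other brain-enriched miRNAs, 1 point per miRNA above blanks on both arrays. The grey band is ± 0.32, 2 SD of spot scatter: all 4 members lie inside it in each comparison, and miR-212-3p, at 0.89, 0.48 and -0.41, lies outside.

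The other arms of the same hairpins gave the brightest spots of these families. The chip held 13 further products of the members' hairpins and of their paralogs. Of these, 5 were above blanks on the aerobic, 7 on the resistance and 6 on the control array. Over all 1900 miRNA probes, 71.8%, 72.2% and 75.3% were above blanks on those arrays. Over the 95th percentile of printed spots without a probe were 5, 4 and 4 of the 13 in that order. Of all miRNA probes 73.4%, 64.2% and 58% were over it. The median raw intensity over all 13 was 96.2, 97.4 and 93.2 in the same order. miR-128-2-5p, the passenger arm of Mir128-2, read 2110.9 in the aerobic, 1379.1 in the resistance and 1505.0 in the control pool. By raw intensity it ranked 40, 47 and 46 among all 1900 probes in that order, while miR-128-3p, the guide from the same hairpin, ranked 1106, 1261 and 1195. miR-128-1-5p, the passenger arm of Mir128-1, read 323.4, 260.6 and 313.0.

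Those hairpins are shown with both mature arms in capitals, the 5p arm first, from RefSeq (GRCm38.p6), because the arms of each gave unlike intensities. Mir128-2 lies at chr9:112118636-112118711 on the minus strand, Mir128-1 at chr1:128202361-128202430 on the plus strand and Mir138-1 at chr9:122682876-122682974 on the plus strand.
Mir128-2: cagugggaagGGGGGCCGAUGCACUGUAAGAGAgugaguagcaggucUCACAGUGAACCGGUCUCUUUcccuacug
Mir128-1: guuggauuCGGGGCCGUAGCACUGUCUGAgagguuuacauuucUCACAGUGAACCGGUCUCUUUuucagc
Mir138-1: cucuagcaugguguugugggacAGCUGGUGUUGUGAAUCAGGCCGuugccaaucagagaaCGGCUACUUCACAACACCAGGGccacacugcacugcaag

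Both miR-128 passenger arms share the seed GGGGCCG and are richer in G and C than the guide, at 60.9% for miR-128-2-5p and 66.7% for miR-128-1-5p against 47.6% for miR-128-3p. miR-138-1-3p, the passenger arm of Mir138-1 with 59.1% G and C, read 198.7 in the aerobic, 160.2 in the resistance and 184.2 in the control pool, a brighter spot than that of the guide miR-138-5p on every array. As these are different probes, a brighter arm is not shown to be the more abundant one. The matching arm of Mir138-2, miR-138-2-3p with 52.4%, read 96.2, 97.8 and 93.2 and was above blanks only on the resistance array. Passenger arms were not bright throughout: miR-124-5p and miR-137-5p were above blanks on no array, and miR-153-5p read 94.1, 98.0 and 96.6 and was above blanks on 2 of 3 arrays. Neither miR-138-2-3p nor miR-153-5p passed the 95th percentile of printed spots without a probe on any array.

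The miR-219 group was dim. miR-219a-5p, the guide arm of Mir219a-1 and Mir219a-2, read 97.1 in the aerobic, 94.6 in the resistance and 87.8 in the control pool and passed on no array. miR-219a-1-3p, miR-219b-3p and miR-219c-3p passed on none either. miR-219b-5p, from the hairpin Mir219b that lies opposite Mir219a-2 on the other strand of chromosome 2, read 109.7, 101.6 and 103.7 in the same order and passed on all 3. miR-219c-5p, opposite Mir219a-1 on chromosome 17, read 99.4, 97.4 and 99.0 and also passed on all 3. It was close to the limit on the aerobic and resistance arrays, and 4.94 blank SDs above the blank mean on the control array. The 95th percentile of printed spots without a probe was passed by miR-219c-5p only on the aerobic array.

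Between pools 1 difference of these arms passed 2 SD of spot scatter. It was in resistance against control plasma, where 3.22% of all 1336 miRNAs compared were lower by more than that. miR-128-1-5p was lower in resistance than in control plasma by a log2 difference of -0.34, just past the limit, and -0.30 without scaling between arrays. It stood at -0.27 in aerobic against control plasma. miR-138-1-3p stood at -0.31 in resistance and -0.11 in aerobic against control plasma. miR-128-2-5p stood at -0.04 in resistance and 0.16 in aerobic against control plasma. The median over the arms compared was -0.07 in aerobic against control plasma (5 arms), -0.07 in resistance against control (6 arms) and -0.09 in resistance against aerobic (5 arms). Against aerobic plasma, the resistance pool stood at -0.07 for miR-128-1-5p, -0.20 for miR-128-2-5p and -0.20 for miR-138-1-3p.

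**Figure D3:**
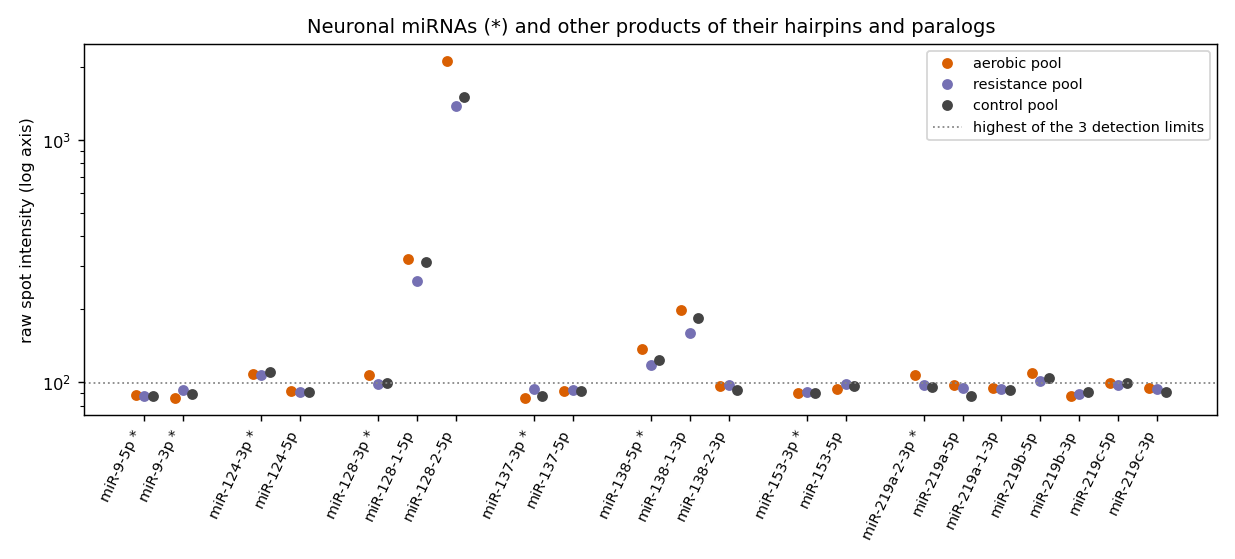
Raw spot intensity (log axis) of the neuronal miRNAs, marked with a star, and of the other products of their hairpins and paralogs in the aerobic, resistance and control pool. The dotted line is the highest of the detection limits, 99.0: miR-128-2-5p, miR-128-1-5p and miR-138-1-3p stand clear of it, while most guides lie along it.

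Raw intensity on this chip moved with base composition. Over the 1614 miRNAs with a RefSeq sequence, Spearman's rho between the percentage of G and C and raw intensity was 0.65 in the aerobic, 0.64 in the resistance and 0.67 in the control pool. It is a description across miRNAs that share an array, not across samples. Of the 224 miRNAs under 40% G and C, 24.1% were above blanks in the aerobic, 24.6% in the resistance and 26.3% in the control pool. Of the 420 miRNAs at 60% or more, 95.2%, 95% and 96.9% were. The 4 members not above blanks all fall in the first of those classes, and miR-138-5p, the brightest, has the most G and C of the 6 members with a sequence. The part of base composition in which members passed was not tested.

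**Figure D4:**
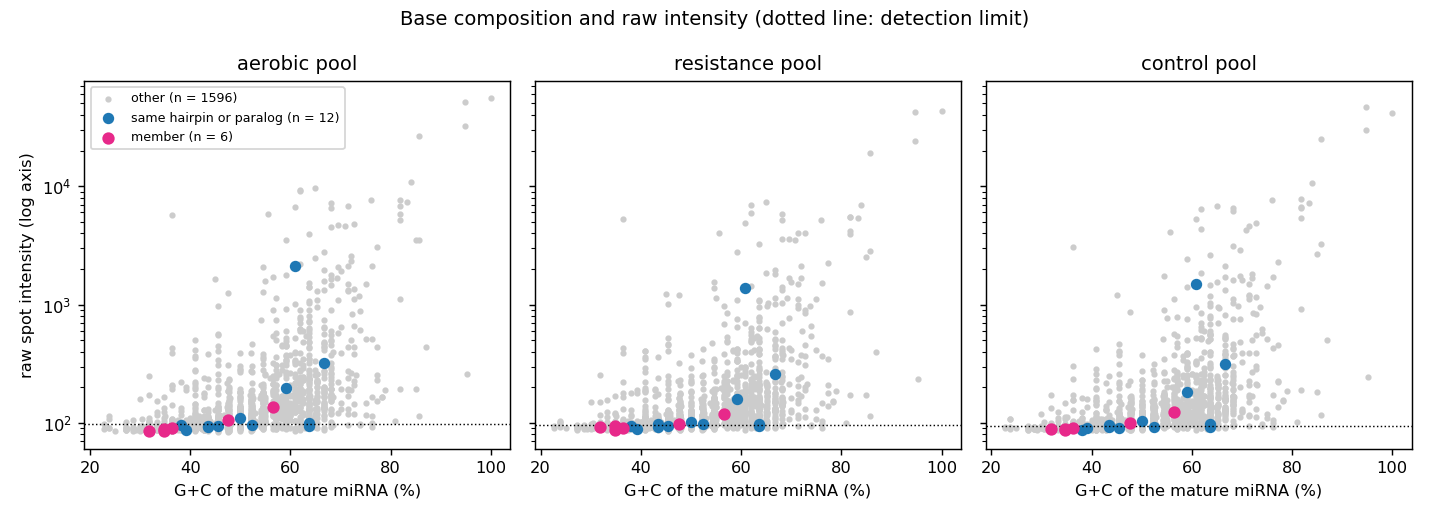
Percentage of G and C in the mature miRNA (x axis) against raw spot intensity (log axis) for 1614 miRNAs in each pool, with the 6 members and 12 related arms that have a RefSeq sequence in colour. The dotted line is the detection limit of the array: members at 31.8% to 36.4% lie at or under it, miR-128-3p at 47.6% just above it and miR-138-5p at 56.5% higher.

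A wider list of 20 other brain-enriched miRNAs had 10 above blanks in the aerobic, 11 in the resistance and 13 in the control pool, beside 71.8%, 72.2% and 75.3% of all miRNA probes. Over the 95th percentile of printed spots without a probe were 11, 9 and 8 of the list in that order. Of all miRNA probes 73.4%, 64.2% and 58% were over it. Above blanks on no array were 7 of the 20 listed. In each comparison all but miR-212-3p lay within 2 SD of spot scatter, among 10 compared in aerobic against control, 11 in resistance against control and 10 in resistance against aerobic plasma. Their medians were 0.00, 0.02 and 0.00 in that order. miR-212-3p, which neuronal activity induces, read 282.2 in the aerobic, 193.3 in the resistance and 148.0 in the control pool. Its log2 difference was 0.89 in aerobic against control and 0.48 in resistance against control plasma, and -0.41 in resistance against aerobic plasma. In the authors' values these were 1.28, 0.75 and -0.54, and over all alternatives they ranged from 0.89 to 1.40, from 0.45 to 0.80 and from -0.66 to -0.41. The aerobic against control difference thus passed 2-fold under some settings and not under others. miR-132-3p of the same cluster, singled out after its values were seen, read 93.6, 95.9 and 96.4 in that order of pools.

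Of the list members over 10 blank SDs on at least 1 array, miR-346-5p read 153.6 in the aerobic, 141.0 in the resistance and 139.7 in the control pool. miR-149-5p read 147.6, 134.6 and 128.6 and miR-326-3p 130.9, 126.3 and 125.6 in the same order. miR-129-5p read 125.9, 114.0 and 111.5. miR-485-5p, at 118.5, 110.7 and 110.7, and miR-134-5p, which limits spine size, at 110.0, 111.5 and 106.8, passed 10 SD only in the control pool. Each of these 6 differed between pools by at most 0.12 on the normalized log2 scale.

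Markers of other sources were set beside the members as sums of signal above the blank mean. These sums were not scaled between arrays, and a few bright probes can carry them. Red cell miRNAs (4 of 5 above blanks on each array) summed to 7006, 6496 and 3628 intensity units above blanks in the aerobic, resistance and control pool, and their median log2 difference was 0.37 in aerobic and 0.62 in resistance against control plasma. Platelet miRNAs (4 of the 5 listed names had a probe, all above blanks) summed to 2407, 2374 and 1658 in the same order, leukocyte miRNAs (4, 5 and 4 of 5) to 379.6, 389.9 and 269.6, and liver miRNAs (3 of 3) to 318.3, 188.6 and 146.6. On the normalized scale the platelet median was 0.17 in aerobic and 0.52 in resistance against control plasma. In the latter 1 of the 4 was lower. The leukocyte medians were 0.13 and 0.19 and the liver medians 0.20 and 0.14 in that order. In resistance against aerobic plasma the medians were 0.29 for red cell, 0.27 for platelet, 0.17 for leukocyte and -0.06 for liver miRNAs. The 3 oligodendrocyte miRNAs, 1 of them a member, summed to 29.2, 10.4 and 10.4, with miR-219a-5p above blanks on none. The part of blood cell content in the members' values was not tested.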

How the data were processed

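Plasma of 3 mice a group was pooled, RNA was labelled with Cy5 and each pool was put on 1 Toray 3D-Gene miRNA array, per the labels' protocols. The series text calls the chip human, but all 1900 miRNA probes carry mouse names, and the extraction text speaks of cells where the other labels name plasma. Per the file headers, the deposited files hold a linear raw intensity for each of 3200 spots, an intensity after the authors' background subtraction and 1 after global normalization. No scanner or software is named in the sources used here. From the values, the authors' background equals the mean of 896 blanks with 5% trimmed at each end (806 left), their empty cells are the probes not above it by 2 SD, and their normalized median is 25. The authors' value table of the series repeats these intensities to within 0.05 on the same linear scale, with column medians of 25 and no centring per miRNA.

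Raw intensities were corrected with normexp (offset 50, blank mean as background) in limma 3.58.1 under R 4.3.3, controls were left out, and log2 values were quantile normalized over the 3 arrays. The processing was tested on simulated data. Changes were set there only in probes with more mean signal above blanks than miR-124-3p, miR-128-3p and miR-219a-2-3p. Spots as dim as those members were thus not covered. Of 1900 probes 1614 were matched by name to RefSeq sequences. With 1 array a group there is no test, and the number of arrays limits the precision. Named were all members, the other arms above blanks on 1 array or more, and listed brain miRNAs over 10 SD or past spot scatter. miRNAs with a like profile were to be named for any member spanning more than 2 SD of spot scatter. The members and lists were chosen with earlier results of these data known. Alternatives changed detection limit, background correction, scaling and filter.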

Additional observations from a re-analysis of the deposited data

How the results depend on the processing

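No paired analysis was possible because each group has 1 array and no replicate number. The number of members above blanks depended on the limit. 10 SD left 1 in the aerobic, 1 in the resistance and 2 in the control pool, the 95th percentile of printed spots without a probe, which lies under the 2 SD limit on the aerobic array, gave 4, 2 and 2, and 1 common distance gave 4, 2 and 3. The highest blank after the trim gave 4 on each array, and the median and MAD of all blanks 4, 3 and 4. Members' median log2 differences grew where no offset was used. In resistance against aerobic plasma the median was -0.37 with an offset of 0, -0.61 with the blank mean subtracted and -0.70 in the authors' values. In resistance against control plasma blank subtraction gave -0.35 and the authors' values -0.45. In aerobic against control plasma an offset of 0 gave 0.17, blank subtraction 0.26 and the authors' values 0.25. No scaling, which kept the offset of 50, gave 0.23 there, beside a median of 0.20 over all miRNAs compared. By construction an offset of 50 compresses dim spots; causes were otherwise not tested.

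Of the 24 differences of the 4 members, 3 arms and miR-212-3p, some moved by more than 1 SD of spot scatter (0.16). Those numbered 15 in the authors' values, 14 with the blank mean subtracted, 11 with an offset of 0 and 10 without scaling. Spike-in scaling moved 5 and median scaling 1. Removing the filter leaves each of these differences unchanged by construction. miR-128-1-5p in aerobic against control plasma ranged from -0.41 to 0.06 and miR-138-1-3p from -0.27 to 0.16. The alternatives for the arms and miR-212-3p were added after their values had been seen.

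Counts of all miRNAs at least 2-fold different were 0 higher and 3 lower in aerobic against control, 3 and 1 in resistance against control, and 2 and 0 in resistance against aerobic plasma. With an offset of 0 they were 2 and 9, 8 and 2, and 5 and 0. With the blank mean subtracted they were 15 and 12, 17 and 15, and 13 and 13. In the authors' values they were 17 and 12, 15 and 24, and 11 and 19. Without scaling 4 were higher in aerobic against control and 1 in resistance against aerobic plasma. With spike-in scaling these were 1 and 1, and the 10 SD filter left 1 higher in resistance against aerobic plasma. No scaling raised the share of miRNAs higher in aerobic against control plasma to 96.8%, against 48.6%, and spike-in scaling to 72.9%.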

Other observations

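Of the 20 listed brain miRNAs, 17 had a probe of the same name with 5p and 3p exchanged, a comparison made after values had been seen. Other arms with a locus number in the name, such as miR-129-2-3p, miR-218-1-3p and miR-218-2-3p, were not counted. These named arms were dimmer than the listed arm on every array, apart from miR-218-2-3p on the aerobic array. The other arm gave the brighter spot in 12 pairs and the listed arm in 5 in the aerobic pool, in 13 and 4 in the resistance pool and in 12 and 5 in the control pool. As these are different probes, that is no order of amounts. Of the other arms, miR-149-3p had a raw intensity of 7703 in the aerobic, 5457 in the resistance and 6561 in the control pool. miR-326-5p read 4640, 3515 and 4229 in that order, and miR-346-3p 438.7, 348.9 and 456.9. Going the other way, miR-212-5p read 119.2 in the aerobic pool beside 282.2 for miR-212-3p.

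Over 594 hairpins whose arms both had a probe and differed in G and C content, the arm with more G and C was the brighter in 68.0% in the aerobic, 67.3% in the resistance and 69.0% in the control pool. The motif GGGG, searched on the mature strand alone and chosen after the miR-128 passenger arms had been seen, was in 182 of 1614 mature sequences (11.3%). The median raw intensity of miRNAs with it was 296.5 in the aerobic, 245.9 in the resistance and 254.0 in the control pool, and of those without it 109.8, 105.4 and 104.7.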
